A study of Mus musculus with 15 samples.

Results

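Il10 and 4 genes that encode transcription factors known to act on it, Maf, Prdm1, Ahr and Nfil3, were followed across mouse T helper cell cultures. The members were taken by gene symbol and make up 5 of the 18194 genes named on the array. Il10 was selected on these same values, because its response to activation differed by lineage, so its levels are given as a description with no test. The 4 regulators were chosen for their known roles, but with earlier results of these data known. Their differences were tested in a fit over all genes, and the p-values are not those of genes chosen without sight of the data.

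IL-10 is a cytokine that restrains immune responses, and effector T helper cells of several lineages can make it as a brake on their own activity. c-MAF, encoded by Maf, is a bZIP factor that binds the Il10 promoter and promotes Il10 expression in several T helper lineages. BLIMP-1, encoded by Prdm1, is a zinc finger factor that supports Il10 in effector and regulatory T cells. The aryl hydrocarbon receptor, encoded by Ahr, is a ligand-activated factor that works with c-MAF in type 1 regulatory T cells, and NFIL3, also called E4BP4, is a bZIP factor that supports Il10 in Th1 and Th2 cells.

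The cells were naive CD4 T cells of 3A9 mice, whose transgenic receptor recognises hen egg lysozyme (HEL), sorted with the clonotypic antibody 1G12. All cultures were taken at day 4, and 500 ng of total RNA was labelled per array. PBAB cultures were stimulated on plates coated with antibodies to CD3 (1 µg/ml) and CD28 (10 µg/ml). In HA cultures it was HEL on splenocytes of syngeneic wild type mice that had been irradiated at 30 Gy, with HEL at 2 µg/ml in Th17 and Th1 cultures and 1 µg/ml in Th9 cultures. Polarization toward Th17 used IL-1alpha (5 ng/ml), IL-6 (10 ng/ml), TGF-beta (3 ng/ml), 20 µg/ml anti-IFN-gamma and 10 µg/ml each of anti-IL-4 and anti-IL-12. Polarization toward Th9 used 10 ng/ml IL-4 with 1 ng/ml TGF-beta, and toward Th1 it used 10 ng/ml IL-12 with 10 µg/ml anti-IL-4. Each of the 6 activated groups had 2 arrays, and each culture had 1 further array labelled APC alone, for antigen-presenting cells, and the labels say nothing more of what these held. The replicates are called biological and the animals are not named. Each p-value rests on the spread between the 2 arrays of activated groups, because APC alone groups have 1 array.

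All levels are log2 RMA values of a single probe set per gene, and levels of different genes are not set against each other. A level under 5.07, the 40th percentile of the table, is called low here, because it is not told from background. Differences are on the log2 scale with the SE of a limma fit over 15 arrays, and a gene is called where its Benjamini-Hochberg adjusted p over 15498 tested genes was under 0.05. All 5 members were among the genes tested.

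The labels were checked against lineage markers. Il17a averaged 11.84 in Th17 PBAB and 10.20 in Th17 HA cultures, and 5.53 to 5.85 in the other activated groups. Ifng averaged 13.08 in Th1 PBAB and 12.82 in Th1 HA cultures, against at most 8.03 elsewhere. Il9, the cytokine that gives Th9 cells their name, was highest in Th17 cultures, at 9.95 under PBAB and 9.71 under HA, while Th9 cultures averaged 6.82 under PBAB and 5.84 under HA. The values therefore go against the Th9 label on this marker, and Th9 is used below as the name of the culture. All 7 T cell identity genes on the array were above the low-value threshold in every group, and their mean level was 10.45 to 11.29 in activated arrays and 6.77 to 8.14 in APC alone.

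Promoter windows of 300 bases, from 250 bases before to 50 after the start of transcription, were read from RefSeq on GRCm38.p6. The table matched 2 of the 5 members, Prdm1 at chr10:44458699-44458998 and Nfil3 at chr13:52980990-52981289, both on the minus strand. They are shown because these regulators were each called between activations, Prdm1 in every culture and Nfil3 in Th17 cultures. Each runs 5′ to 3′ along the gene, and capitals mark exact matches, on either strand, to any of 6 searched motifs.
Prdm1: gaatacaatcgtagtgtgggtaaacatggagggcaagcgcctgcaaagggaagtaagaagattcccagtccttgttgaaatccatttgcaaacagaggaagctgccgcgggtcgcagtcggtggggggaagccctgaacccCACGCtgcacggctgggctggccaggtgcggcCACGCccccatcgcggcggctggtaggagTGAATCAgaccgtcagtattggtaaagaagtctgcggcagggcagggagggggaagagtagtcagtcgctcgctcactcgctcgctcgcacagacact
Nfil3: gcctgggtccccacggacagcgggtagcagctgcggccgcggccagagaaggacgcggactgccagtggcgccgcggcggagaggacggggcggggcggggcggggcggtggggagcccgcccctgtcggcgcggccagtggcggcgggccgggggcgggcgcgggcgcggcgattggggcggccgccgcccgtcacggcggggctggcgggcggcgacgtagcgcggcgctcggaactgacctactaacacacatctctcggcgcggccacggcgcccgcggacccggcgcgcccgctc
The motifs were the MAF site TGCTGA, the AHR core GCGTG, the PRDM1 site GNGAAAG, TTANGTAA for NFIL3, TTCNNNGAA for STAT factors and TGANTCA for AP-1. The Prdm1 window held 2 copies of the AHR core, read on the minus strand as CACGC with first bases at -109 and -77, and 1 AP-1 match at -48. No motif was found in the Nfil3 window. Of 32851 windows of the same length, 32.4% held the AHR core and 7.81% the AP-1 motif, while TGCTGA stood in 19.5%, GNGAAAG in 22.6%, TTCNNNGAA in 8.3% and TTANGTAA in 2.32%. G and C made up 59.7% of the Prdm1 window and 81.7% of the Nfil3 window. No 2 of these motifs overlapped in either window, and a match describes letters only.

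Il10 was at its highest where Th1 and Th9 cultures met antigen on splenocytes, and near the low-value threshold in Th1 cultures stimulated with plate-bound antibody. In Th1 PBAB cultures Il10 read 5.18 and 4.73, against 11.63 and 10.21 in Th1 HA cultures. 1 PBAB array lay under the low-value threshold and the other just above it, while both HA arrays lay far above it. The mean difference was -5.97, with -6.45 in the arrays of replicate number 1 and -5.49 in those of number 2. Because the PBAB mean of 4.95 was low, the size of this difference is uncertain and no fold is given.

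In Th9 cultures Il10 read 7.42 and 8.02 under PBAB, against 11.33 and 9.56 under HA. The groups did not overlap, and the difference of -2.73 made PBAB 6.62-fold lower. It was -3.91 between the arrays of replicate number 1 and -1.54 between those of number 2, so the size varied between replicates. In Th17 cultures the direction was not that of the other cultures, with 8.68 and 8.85 under PBAB, against 8.64 and 7.37 under HA. The mean difference was 0.76, but the pairs gave 0.04 and 1.48, and the higher HA array lay just below the lower PBAB array. The difference of the activation effects was 6.73 between Th17 and Th1 cultures, 3.48 between Th17 and Th9 and 3.24 between Th9 and Th1, and the low Th1 PBAB level leaves both sizes against Th1 uncertain.

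The order of the 9 groups was Th1 HA at 10.92 ± 1.00 (SD, n = 2), Th9 HA at 10.45 ± 1.25, Th17 PBAB at 8.76 ± 0.12, Th17 HA at 8.0 ± 0.90 and Th9 PBAB at 7.72 ± 0.42. Below these came Th9 APC alone at 5.03, Th1 PBAB at 4.95 ± 0.32, Th17 APC alone at 4.58 and Th1 APC alone at 4.32. The arrays overlapped between Th1 HA and Th9 HA, between Th17 HA and Th9 PBAB, and between Th9 APC alone and Th1 PBAB, so these neighbours did not differ beyond their spread. Under PBAB the cultures ran from Th17 through Th9 to Th1 with no overlap, with Th17 above Th9 by 1.04 and above Th1 by 3.81. Under HA, Th17 lay below Th9 by a difference of -2.44 and below Th1 by a difference of -2.92. All 3 HA groups had their higher Il10 value in the array of replicate 1.

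**Figure D1:**
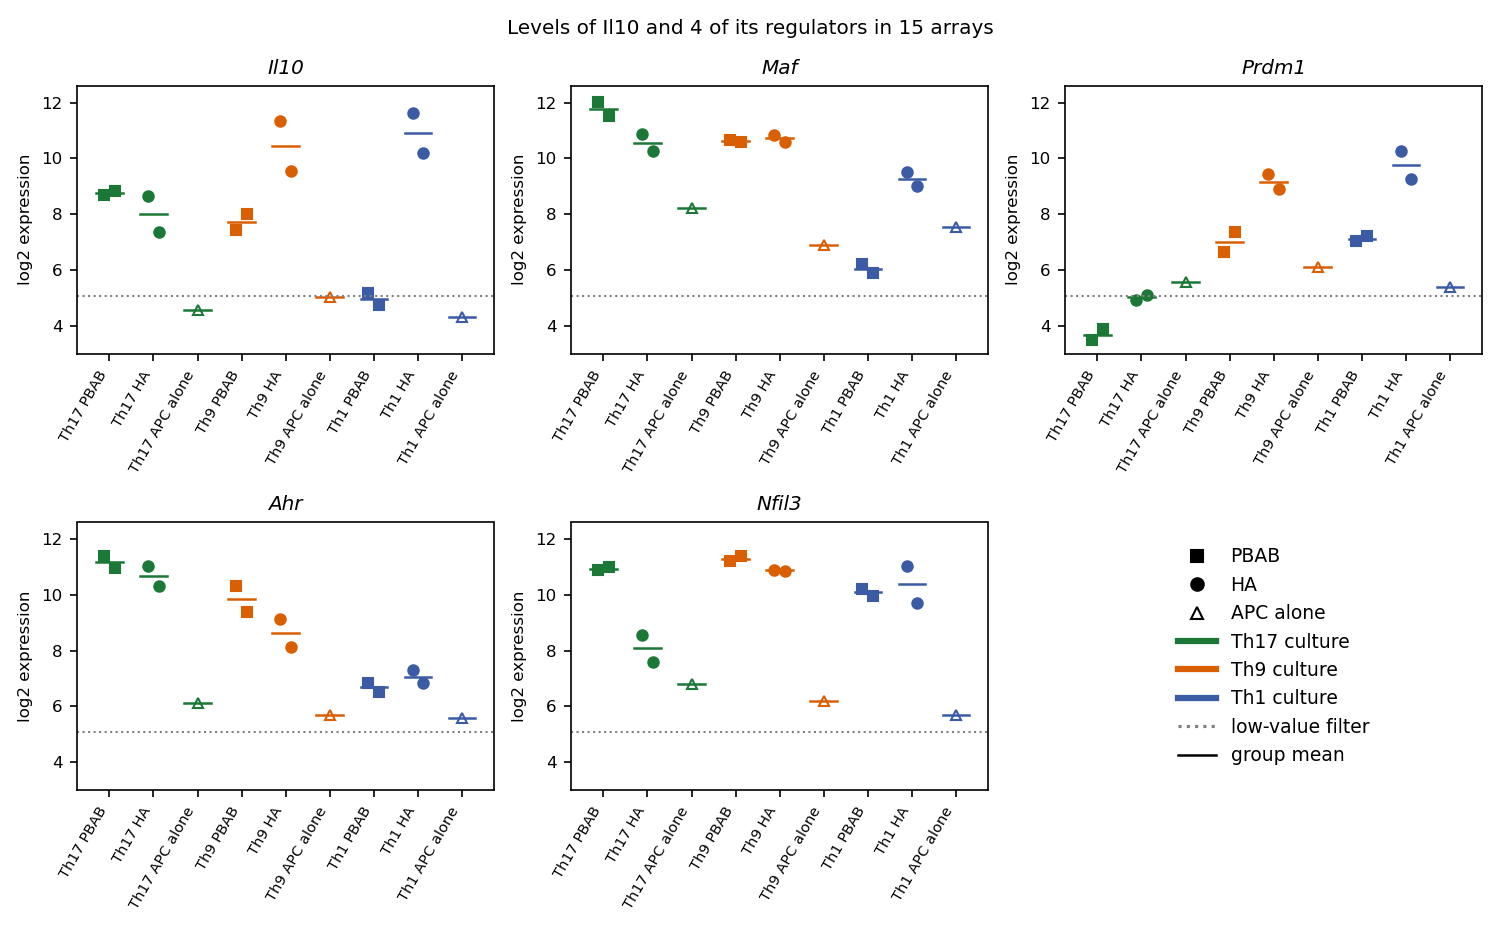
Levels (log2) of Il10, Maf, Prdm1, Ahr and Nfil3 in 15 arrays, by culture and by activation or APC alone. Points are arrays, horizontal bars are group means and the dotted line is the low-value threshold of 5.07; Il10 lies at the threshold in Th1 PBAB cultures and near 11 in Th1 HA cultures, and Prdm1 lies at or below it in Th17 cultures.

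Genes of other cell types moved with activation in some cultures. The mean level of 10 macrophage and monocyte genes was 4.67 to 4.88 in Th17 PBAB arrays and 6.18 to 6.46 in Th17 HA arrays, with 3 and 6 genes above the low-value threshold. It was 4.64 to 5.05 in Th9 PBAB and 5.46 to 5.94 in Th9 HA arrays, again with 3 and 6 genes. Lyz2, a lysozyme of macrophages, averaged 5.39 in Th17 PBAB and 10.59 in Th17 HA cultures, 4.99 in Th9 PBAB and 8.61 in Th9 HA, and 4.95 in Th1 PBAB and 6.17 in Th1 HA. Cd68, a lysosomal protein of macrophages, ran the other way in Th9 cultures, with 8.47 under PBAB and 6.97 under HA, and in Th1 cultures, with 8.72 under PBAB and 6.66 under HA. In Th17 cultures it averaged 7.13 under PBAB and 7.69 under HA. The mean of the list in Th1 cultures, 4.77 to 5.16 under PBAB and 4.84 to 4.96 under HA, thus held members that differed in opposite directions. The part of these cells in the differences between activations was not tested. In APC alone, where the list mean was 8.65 to 9.09, Il10 was low in all 3 arrays. In bulk RNA, fewer cells of a type and less RNA per cell cannot be told apart.

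The mean over 4 NK cell genes was 5.54 to 5.89 in Th1 PBAB and 6.89 to 7.02 in Th1 HA arrays, and 5.61 to 6.07 in Th17 PBAB and 6.50 to 6.55 in Th17 HA arrays, carried by Klrk1 and Klrd1, which T cells can also express. Ncr1 and Klra8, which define NK cells, were low in every activated group. The mean over 6 plasma cell genes was 6.98 to 7.01 in Th1 PBAB and 6.29 to 6.34 in Th1 HA arrays, and 7.69 to 7.87 in Th17 PBAB and 7.60 in Th17 HA arrays. In Th9 cultures this mean was 6.78 to 6.86 in PBAB and 6.82 to 6.94 in HA arrays. Sdc1, the surface marker syndecan-1, averaged 7.95 in Th1 PBAB and 5.24 in Th1 HA cultures, 7.49 in Th9 PBAB and 5.78 in Th9 HA, and 7.57 in Th17 PBAB and 6.16 in Th17 HA. Jchain and Tnfrsf17, which mark plasma cells, were low in every activated group. Tnfrsf13b averaged 9.73 to 11.54 and Xbp1 11.97 to 13.16 over the activated groups, so these genes raised the list mean. Pou2af1 averaged 7.24 in Th17 PBAB and 7.38 in Th17 HA cultures and was low in Th1 cultures. In Th9 cultures it was low too, and ran against Sdc1, with 3.17 under PBAB and 4.78 under HA. Foxp3, the factor of regulatory T cells, averaged 6.78 in Th17 PBAB and 8.37 in Th17 HA cultures, 5.75 in Th9 PBAB and 6.13 in Th9 HA, and was low in Th1 cultures under both activations. Ikzf2 and Il2ra, the other genes of the regulatory T cell list, ran the other way in Th17 and Th9 cultures. Ikzf2 averaged 9.75 in Th17 PBAB and 7.55 in Th17 HA cultures, and 9.58 in Th9 PBAB and 7.66 in Th9 HA. Il2ra averaged 12.21 in Th17 PBAB and 10.62 in Th17 HA cultures, and 11.70 in Th9 PBAB and 10.28 in Th9 HA. In Th1 cultures Ikzf2 averaged 9.01 under PBAB and 8.64 under HA, and Il2ra 11.38 and 11.47. For the actin control, the difference between the 3′ and 5′ probe sets, which grows as RNA degrades, was 0.12 to 0.28 in PBAB and 0.05 to 0.11 in HA arrays, and 0.74 to 0.99 in APC alone. The 18S ribosomal signal was 9.98 to 11.45 in PBAB and 9.27 to 10.89 in HA arrays, and 8.60 to 8.82 in APC alone. The part of RNA quality, of NK cell genes, of plasma cell genes, whose lineage uses Prdm1, and of regulatory T cell genes in the results was not tested. Arrays of one activated group correlated at 0.987 to 0.990 over the 18194 genes, with 1 probe set per gene.

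Between activations, 3 of the 4 regulators were called in Th17 cultures, 1 in Th9 cultures and 2 in Th1 cultures, where 17.1%, 13.7% and 14.6% of all genes were called. Maf was higher under PBAB in Th17 and lower under PBAB in Th1 cultures, Prdm1 was lower under PBAB in every culture, Nfil3 was higher under PBAB in Th17 cultures, and Ahr was called in none. A count over 4 genes is small, and each gene is therefore given on its own.

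Maf read 12.04 and 11.53 in Th17 PBAB cultures, against 10.89 and 10.26 in Th17 HA cultures. The groups did not overlap, and Maf was higher under PBAB by 1.21 ± 0.27 (SE), 2.32-fold (limma adjusted p = 0.0107). Leaving out Th17 HA replicate 2 or Th17 PBAB replicate 1 ended that call, with limma adjusted p = 0.101 and 0.0904. In Th1 cultures it read 6.22 and 5.87 under PBAB, against 9.51 and 9.03 under HA, so that it was lower under PBAB by a difference of -3.22 ± 0.27, or 9.33-fold (limma adjusted p = 6.39e-05). In Th9 cultures the values were 10.67 and 10.58 under PBAB, against 10.85 and 10.59 under HA, with overlapping arrays and a 95% interval of the difference from -0.68 to 0.50.

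The activation effect on Maf differed between cultures. PBAB minus HA was larger in Th17 than in Th1 cultures by 4.43 ± 0.37 (limma adjusted p = 0.000524) and in Th9 than in Th1 cultures by 3.13 ± 0.37 (limma adjusted p = 0.00341), where 3.53% and 1.37% of all genes were called in either direction. Between Th17 and Th9 cultures the difference was 1.30 ± 0.37 and missed the threshold (limma adjusted p = 0.114), although with the replicate number as a block it passed (limma adjusted p = 0.00475). Maf in Th1 PBAB cultures, at a mean of 6.05, was lower than in any other group, APC alone included, where the 3 arrays read 8.22 in Th17, 6.91 in Th9 and 7.55 in Th1 cultures. Il10 and Maf thus shared their lowest activated group, Th1 PBAB, but Maf was at its highest in Th17 PBAB cultures and Il10 in Th1 HA cultures.

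Maf had 6 probe sets, and all of them gave a higher level under PBAB in Th17 cultures, by 0.49 to 1.45, and a lower one in Th1 cultures, with differences from -4.27 to -0.25. In Th9 cultures they gave -1.13 to 0.08. They also differed in how far the 2 replicates lay apart. In the probe set used, replicate 1 exceeded replicate 2 by 0.39 on average over the 6 activated groups, against 2.08 and 1.40 in a pair of the others. When the mean of all probe sets was taken in place of the brightest, the Th1 call remained, and the Th17 call was lost (difference 1.05, limma adjusted p = 0.201), as was the difference between the Th9 and Th1 effects (2.01, limma adjusted p = 0.284). The lineage differences of Maf under HA, and that between Th17 and Th9 cultures under PBAB, lost their calls in the same way (limma adjusted p = 0.106 to 0.217). Ahr had a second probe set, which averaged 5.21 over all arrays and was near the threshold throughout. Il10, Prdm1 and Nfil3 had 1 each.

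**Figure D2:**
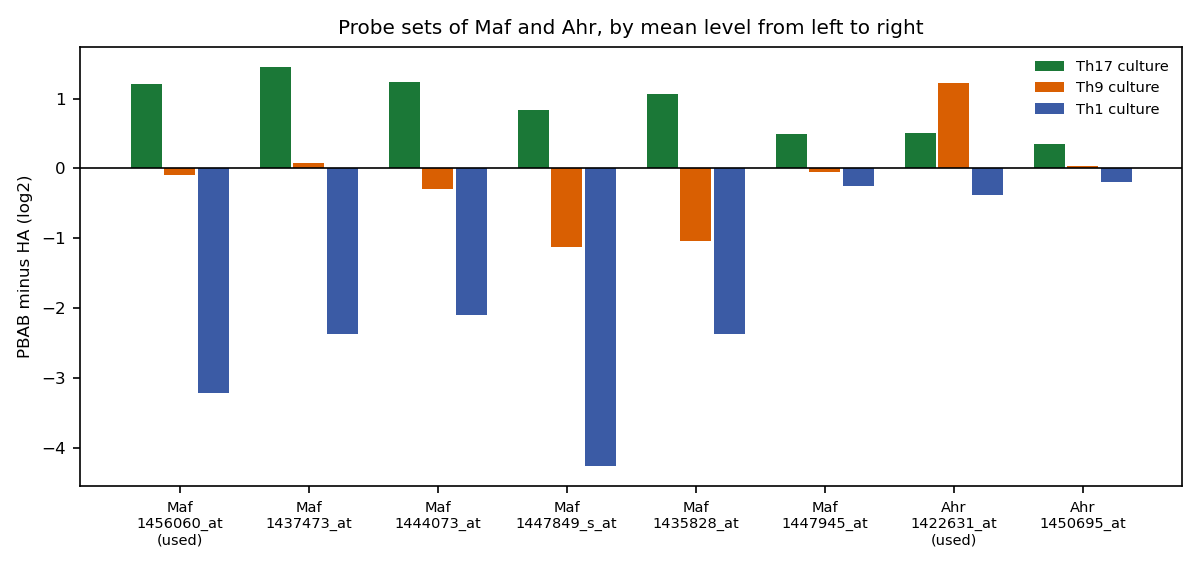
PBAB minus HA (log2, bars from 0) for the 6 probe sets of Maf and the 2 of Ahr in Th17, Th9 and Th1 cultures, ordered by mean level within each gene. All Maf probe sets were above 0 in Th17 and below 0 in Th1 cultures, with sizes from -4.27 to -0.25 in Th1.

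Prdm1 was the regulator with the same direction in all cultures. In Th1 cultures it read 7.03 and 7.22 under PBAB, against 10.27 and 9.27 under HA, a difference of -2.64 ± 0.34 that made PBAB 6.24-fold lower (limma adjusted p = 0.000703). In Th9 cultures it read 6.66 and 7.34 under PBAB, against 9.43 and 8.89 under HA, a difference of -2.16 ± 0.34 that made PBAB 4.46-fold lower (limma adjusted p = 0.00241). The groups overlapped in neither culture. In Th17 cultures it read 3.49 and 3.87 under PBAB, against 4.92 and 5.12 under HA. Both Th17 means were low, so the called difference of -1.34 ± 0.34 (limma adjusted p = 0.0208) has no fold, and leaving out any 1 of the 4 Th17 arrays ended the call, with limma adjusted p = 0.0559 to 0.132.

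No difference of activation effects was called for Prdm1, with limma adjusted p = 0.195 for Th17 minus Th1, 0.510 for Th17 minus Th9 and 0.817 for Th9 minus Th1. In that order the intervals were wide, from 0.25 to 2.36, from -0.23 to 1.87 and from -0.57 to 1.54. Because both Th17 means were low, the sizes of the differences that involve Th17 are uncertain. The level differed far more between lineages. Under HA, Th17 cultures were below Th1 by a difference of -4.75 ± 0.34 (limma adjusted p = 1.89e-05) and below Th9 by a difference of -4.14 ± 0.34 (limma adjusted p = 9.50e-05). Under PBAB the same differences were -3.44 ± 0.34 and -3.32 ± 0.34 (limma adjusted p = 0.000187 and 0.000321). In both activations the Th17 mean was low, so these sizes are uncertain. Th9 and Th1 cultures did not pass the test in either activation. The Th17 arrays, at 3.49 to 5.12, also lay below APC alone, where Prdm1 read 5.57 in Th17, 6.12 in Th9 and 5.37 in Th1 cultures.

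Ahr separated the cultures more than the activations. It read 11.41 and 10.97 in Th17 PBAB and 11.03 and 10.34 in Th17 HA cultures. In Th9 cultures the readings were 10.34 and 9.38 under PBAB, against 9.14 and 8.12 under HA. In Th1 cultures they were 6.83 and 6.53 under PBAB, against 7.29 and 6.84 under HA. The Th17 groups overlapped, while the Th9 and Th1 groups did not. PBAB minus HA was 0.51 ± 0.40 in Th17, 1.23 ± 0.40 in Th9 and -0.39 ± 0.40 in Th1 cultures (limma adjusted p = 0.482, 0.0696 and 0.603).

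The Th9 difference of Ahr depended on the handling of the replicates. It was 1.2 between the arrays of replicate 1 and 1.25 between those of replicate 2, and replicate 1 was the higher array in all 6 activated groups, by 0.64 on average. With the replicate number as a block it was called (limma adjusted p = 0.000692), as were the differences between the Th9 and Th1 effects (1.61, limma adjusted p = 0.00553 with the block and 0.275 without) and between the Th17 and Th1 effects (0.89, limma adjusted p = 0.0488 with the block and 0.522 without). Leaving out Th9 HA replicate 1 or Th9 PBAB replicate 2 also brought the Th9 difference past the threshold (limma adjusted p = 0.0341 and 0.0433).

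Nfil3 had its lowest activated level in Th17 HA cultures. In Th17 cultures it read 10.91 and 10.99 under PBAB, against 8.57 and 7.61 under HA, and PBAB was higher by 2.86 ± 0.39, or 7.25-fold (limma adjusted p = 0.00107). Neither of the other cultures passed the test. In Th9 cultures it read 11.20 and 11.38 under PBAB, against 10.91 and 10.85 under HA, with an interval of the difference from -0.45 to 1.28. In Th1 cultures it read 10.21 and 9.97 under PBAB, against 11.05 and 9.72 under HA, with overlapping arrays and an interval from -1.16 to 0.57.

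The activation effect on Nfil3 was larger in Th17 than in Th1 cultures by 3.15 ± 0.55 (limma adjusted p = 0.0141). That call was lost without Th1 PBAB replicate 2, Th17 HA replicate 2 or Th17 PBAB replicate 2 (limma adjusted p = 0.0585, 0.0546 and 0.0593). Between Th17 and Th9 cultures the difference was 2.44 ± 0.55 and missed the threshold (limma adjusted p = 0.0543), with 1.71% of all genes called, and it passed with the replicate block (limma adjusted p = 0.00946). It also passed without Th1 HA replicate 1, Th1 HA replicate 2 or Th17 HA replicate 1 (limma adjusted p = 0.0218, 0.0218 and 0.0405).

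**Figure D3:**
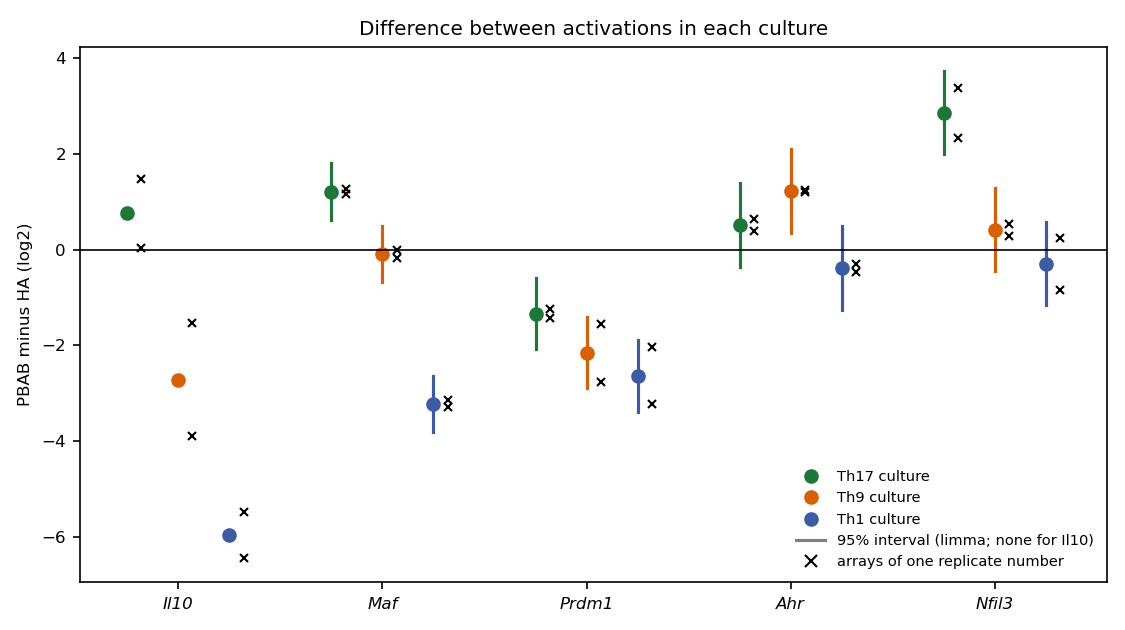
PBAB minus HA (log2) of the 5 genes in Th17, Th9 and Th1 cultures. Large points are mean differences with 95% limma intervals (none for Il10, which was not tested), and crosses are the differences between arrays of one replicate number; Prdm1 is below 0 in each culture, and Il10, Maf and Nfil3 lie higher in Th17 than in Th1 cultures.

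Between lineages, under PBAB, 3 of the 4 regulators were called in Th17 against Th1 cultures, where 6.99% of all genes were, 2 in Th17 against Th9 (6.37%) and 2 in Th9 against Th1 (2.16%). Maf was higher in Th17 than in Th1 cultures by 5.74 ± 0.27, or 53.4-fold (limma adjusted p = 2.19e-06), and in Th9 than in Th1 by 4.58 ± 0.27, or 23.9-fold (limma adjusted p = 1.40e-05). Ahr was higher in Th17 than in Th1 cultures by 4.51 ± 0.40, or 22.8-fold (limma adjusted p = 0.000110), and in Th9 than in Th1 by 3.18 ± 0.40, or 9.04-fold (limma adjusted p = 0.00201). Th17 exceeded Th9 in Maf by 1.16 ± 0.27 (limma adjusted p = 0.0282), a call lost without either Th9 PBAB array or Th17 PBAB replicate 1 (limma adjusted p = 0.113, 0.134 and 0.202). Ahr in Th17 against Th9 cultures missed the threshold (1.33 ± 0.40, limma adjusted p = 0.0813) and passed it with the replicate block (limma adjusted p = 0.000790). Nfil3 was called between no lineages under PBAB.

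Under HA all 4 regulators were called in Th17 against Th1 cultures, where 6.9% of all genes were, 3 in Th17 against Th9 (4.77%) and 2 in Th9 against Th1 (5.34%). Nfil3 was lower in Th17 than in Th9 HA cultures by a difference of -2.79 ± 0.39 (limma adjusted p = 0.00278) and lower than in Th1 HA cultures by a difference of -2.30 ± 0.39 (limma adjusted p = 0.00507). Ahr was higher in Th17 than in Th1 cultures by 3.62 ± 0.40 (limma adjusted p = 0.000314) and than in Th9 by 2.05 ± 0.40 (limma adjusted p = 0.0162), the last call being lost without Th9 HA replicate 2 or Th17 HA replicate 1 (limma adjusted p = 0.115 and 0.112). Maf was higher in Th17 than in Th1 cultures by 1.30 ± 0.27 (limma adjusted p = 0.0137), lost without Th1 HA replicate 2 or Th17 HA replicate 1 (limma adjusted p = 0.108 and 0.102). It was higher in Th9 than in Th1 cultures by 1.45 ± 0.27 (limma adjusted p = 0.00918), lost without Th1 HA replicate 2 or Th9 HA replicate 1 (limma adjusted p = 0.0796 and 0.0705). Ahr in Th9 against Th1 cultures, at 1.56 ± 0.40, lay at the threshold (limma adjusted p = 0.0493). It was lost without any 1 of 9 arrays, all but Th9 HA replicate 2 and the 2 of Th9 PBAB (limma adjusted p = 0.0512 to 0.259). The 3 contrasts of an activation share their groups.

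Against APC alone, averaged over the cultures, all 4 regulators were called higher in HA and 3 in PBAB, but 90.7% and 89.8% of all genes were called there, and 49.5% and 48.7% were called higher, so the counts say nothing particular of these genes. Each APC alone group held 1 array, so the SE and p-values here use only the spread between activated arrays. They do not measure how APC alone arrays vary. Nfil3 was higher by 4.54 ± 0.28 in PBAB and 3.54 ± 0.28 in HA, while all genes shifted by a median of 0.31 in PBAB and 0.36 in HA. Prdm1 was higher in HA by 2.29 ± 0.24, whereas in PBAB it differed by 0.25 ± 0.24 (limma adjusted p = 0.336). That last value was called after each array was centred on its median (0.67, limma adjusted p = 0.0216). A repeated quantile normalization also brought the Prdm1 difference in PBAB past the threshold (0.67). Il10 was low in all APC alone arrays, so it is given no fold there.

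Across the 12 activated arrays, none of the regulators tracked Il10 closely. Pearson's r with Il10 was 0.61 for Maf, 0.42 for Prdm1, 0.25 for Nfil3 and 0.12 for Ahr, and Spearman's rho was 0.33, 0.50, 0.27 and 0.08. The arrays fall into 6 groups and share their lineage and activation, so these are descriptions of the group pattern. With any 1 array left out r ran from 0.39 to 0.72 for Maf, 0.27 to 0.53 for Prdm1, 0.18 to 0.31 for Nfil3 and -0.15 to 0.31 for Ahr. Among 1059 tested genes whose group means spanned at least 2, the regulators ranked 137, 329, 489 and 566 by r. Maf was highest in Th17 PBAB cultures, where Il10 was intermediate, and Prdm1 was low in Th17 cultures, where Il10 was not.

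**Figure D4:**
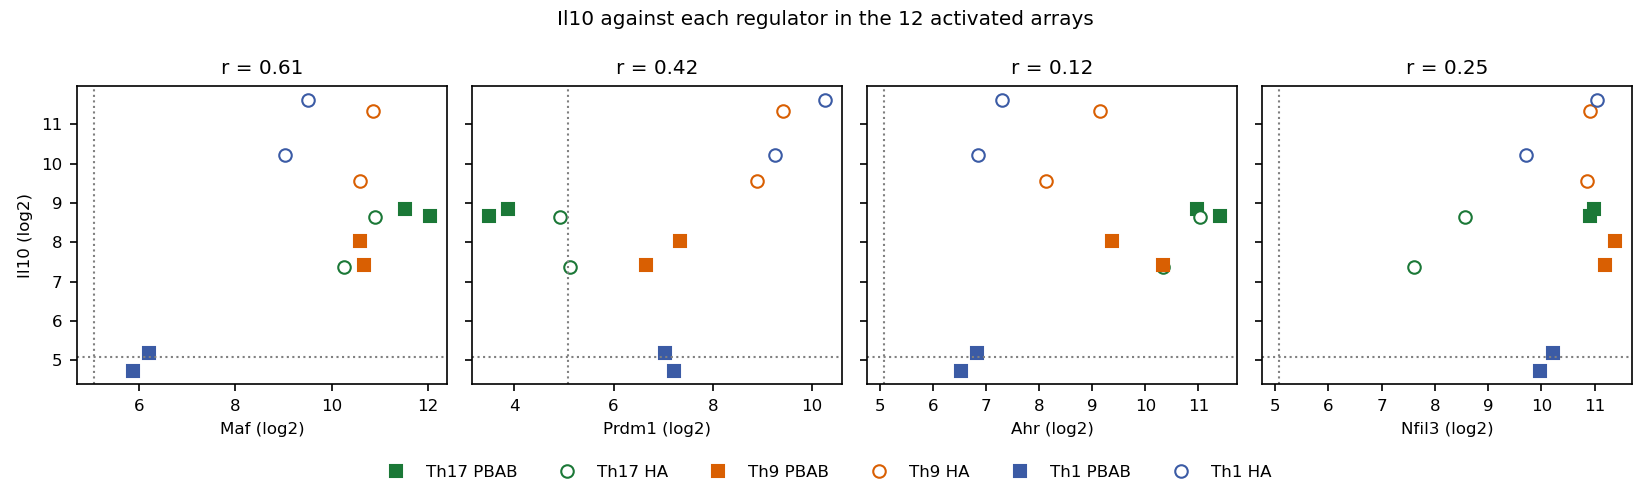
Il10 level against the level of Maf, Prdm1, Ahr and Nfil3 (all log2) in the 12 activated arrays, coloured by culture, with squares for PBAB and open circles for HA. Dotted lines mark the low-value threshold of 5.07; the panels give r from 0.12 for Ahr to 0.61 for Maf.

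The genes most like Il10 by the same measure were Ripk3, a kinase of necroptosis (r = 0.91), Cxcr6, a chemokine receptor (0.91), F2r, a thrombin receptor (0.89), Piwil2 (0.89) and Lrp12 (0.89). Cxcr6 averaged 5.40 in Th1 PBAB and 11.94 in Th1 HA cultures, 7.98 in Th9 PBAB and 11.56 in Th9 HA, and 8.88 in Th17 PBAB and 9.66 in Th17 HA. Its span of 6.54 was the widest of these 5, and its order of groups differed from that of Il10 within Th17 cultures. The genes running most against Il10 were Crtam (-0.90), Plscr1 (-0.87) and Ankrd33b (-0.84), of which Crtam averaged 7.95 in Th1 PBAB and 5.62 in Th1 HA cultures. Lpxn, Cldnd1 and Tec were most like Maf (r = 0.93, 0.93 and 0.92), and Adam8, 1500009L16Rik and Chst11 most like Prdm1 (0.97, 0.97 and 0.94). Thap12, Gatm and Rnf149 were most like Ahr (0.96, 0.94 and 0.93), and Ero1a, Fzd7 and Scd1 most like Nfil3 (0.95, 0.90 and 0.88).

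Other genes of IL-10 control were taken from lists, each described by its counts between activations beside the shares of all genes given above. By direction, 6.66% of all genes were called higher and 10.4% lower in Th17 cultures, 7.39% and 6.32% in Th9, and 5.22% and 9.4% in Th1. With the replicate block 4709, 4056 and 4380 of all genes were called in Th17, Th9 and Th1 cultures, against 2648, 2126 and 2266 without it. Leaving out 1 array could lower the count over all genes too. Changes of a list's count in these alternatives are therefore not particular to that list. Of 16 activators of Il10, 3 were higher and 2 lower under PBAB in Th17 cultures, 3 higher and 3 lower in Th9, and 2 higher and 3 lower in Th1. Their median differences were -0.16, 0.14 and -0.43, against -0.0021, 0.0062 and 0.0287 over all genes tested. Rbpj, the DNA-binding partner of Notch, was higher under PBAB in each culture, by 1.73 in Th17, 1.31 in Th9 and 1.42 in Th1 cultures. Gata3, the factor of Th2 cells, was lower under PBAB in Th17 cultures by a difference of -2.35 ± 0.40 (limma adjusted p = 0.00317), and Eomes, a T-box factor, was lower in Th9 cultures by a difference of -1.56 ± 0.18 (limma adjusted p = 0.000555). Irf4, which Th17 and Th9 cells need, was called higher in Th9 (1.59) and Th1 cultures (1.48). In Th17 cultures it differed by 0.98 and missed the threshold (limma adjusted p = 0.0990), but passed it with the replicate block (0.0102), a repeated quantile normalization (0.0402), the mean of its probe sets (0.00188) or without either Th1 HA array (0.0218). Batf, its partner, was called in none. Nfatc2, a factor downstream of the T cell receptor, differed by -0.70 in Th17, -0.79 in Th9 and -1.54 in Th1 cultures and was called lower in each with the probe set used, and in none with the mean of its probe sets (limma adjusted p = 0.492, 0.873 and 0.502).

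The calls of Gata3, Eomes and, in Th17 cultures, Rbpj held in every alternative tried. Rbpj lost its call without Th9 PBAB replicate 1 or Th9 HA replicate 2 in Th9 cultures (limma adjusted p = 0.0607 and 0.0655) and without Th1 HA replicate 2 in Th1 cultures (limma adjusted p = 0.0540). Irf4 lost its call without Th9 HA replicate 2 or either Th9 PBAB array in Th9 cultures, and without Th1 HA replicate 2 or either Th1 PBAB array in Th1 cultures. The activators called fell to 2 or 3 in Th17 cultures without any 1 of the 4 Th17, the 2 Th9 PBAB or the 2 Th1 PBAB arrays. In Th9 cultures they fell to 2 without Th9 HA replicate 2, 1 without Th9 PBAB replicate 1 and 3 without Th9 PBAB replicate 2. In Th1 cultures they fell to 1 without Th1 HA replicate 2 and 3 without Th1 PBAB replicate 2, and there were 9 with the replicate block.

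Of 5 repressors of Il10 or Prdm1, 1 was higher in Th17, 1 in Th9 and 0 in Th1 cultures. Bhlhe40, which represses Il10 in Th1 cells, was higher under PBAB in Th9 cultures, with a mean of 12.01 under PBAB and 10.03 under HA, a difference of 1.98 ± 0.29 (limma adjusted p = 0.00174). In Th1 cultures it averaged 12.15 under PBAB and 12.00 under HA. Zfp36, an RNA-binding protein that destabilises cytokine transcripts, was higher under PBAB in Th17 cultures by 1.43, a call lost without Th17 PBAB replicate 2 or Th17 HA replicate 2 (limma adjusted p = 0.0569 and 0.0879). In Th1 cultures limma called none of the 5 repressors, where 14.6% of all genes were called, so a count of 0 among 5 says little. In Th17 cultures the count was 2 without Th17 HA replicate 1, 0 without Th17 PBAB replicate 2 or Th17 HA replicate 2, and 2 with the replicate block. In Th9 cultures it was 2 without Th9 PBAB replicate 2.

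Of 12 genes for cytokines that induce IL-10 and their receptors, 1 was higher and 2 lower in Th17 cultures, 2 higher and 2 lower in Th9, and 0 higher and 4 lower in Th1. With the replicate block the called members numbered 6, 8 and 8. Icos, a costimulatory receptor, was lower under PBAB in Th9 cultures by a difference of -2.64 ± 0.26 (limma adjusted p = 0.000199), with means of 9.36 under PBAB and 12.00 under HA. Il12rb2, a subunit of the IL-12 receptor, was higher under PBAB in Th9 cultures, with a mean of 7.04 under PBAB and a low 4.58 under HA (difference 2.45 ± 0.32, limma adjusted p = 0.000931). The low HA mean leaves its size uncertain. Both calls held in every alternative tried. Tgfbr2, a TGF-beta receptor, differed by -1.04 in Th17, -0.91 in Th9 and -1.49 in Th1 cultures and was called lower in each with the probe set used, and in none with the mean of its probe sets (limma adjusted p = 0.652, 0.669 and 0.0922). The count fell to 1 without any 1 of the 4 Th17 arrays in Th17 cultures, to 2 without Th9 PBAB replicate 1 or Th9 HA replicate 2 in Th9, and to 2 without Th1 HA replicate 1 or 1 without Th1 PBAB replicate 2 in Th1.

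The IL-10 receptor chain Il10ra, which binds the cytokine, was called in no culture. It averaged 6.53 under PBAB and 6.01 under HA in Th17 cultures, 7.75 and 7.16 in Th9, and 7.83 and 8.08 in Th1. Jak1, the kinase that the receptor uses, was lower under PBAB in Th1 cultures by a difference of -1.12 ± 0.20 (limma adjusted p = 0.00446), and this held in every alternative tried. Of 7 receptor and signalling genes tested, 1 was called in Th17, 0 in Th9 and 2 in Th1 cultures, and 2, 3 and 4 with the replicate block. The Th17 count was 0 without any 1 of the 4 Th17, the 2 Th9 PBAB or the 2 Th1 PBAB arrays, the Th9 count was 1 without Th9 PBAB replicate 1, and the Th1 count was 1 without any 1 of the 4 Th1 arrays.

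Of 4 other cytokines of the IL-10 family, 2 were matched. Il24 averaged 11.91 in Th17 PBAB and 8.21 in Th17 HA cultures, and was higher under PBAB by 3.70 ± 1.03 (limma adjusted p = 0.0319). In Th1 cultures it averaged 11.18 under PBAB and 7.97 under HA, a difference of 3.21 ± 1.03 that missed the threshold (limma adjusted p = 0.0634) and passed it with the replicate block (limma adjusted p = 0.0103). The Th17 call was lost without any 1 of the 4 Th17 arrays, and the Th1 difference was called without Th1 HA replicate 1. Where Il10 was lower under PBAB in Th1 cultures, Il24 was not. Il20 lay between 5.89 and 6.16 in every activated group.

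Ahrr and Cyp1b1, target genes of the aryl hydrocarbon receptor, were lower under PBAB in Th17 cultures, where Ahr itself was not called. Of 7 pathway genes tested, 1 was higher and 3 lower in Th17 cultures, 0 higher and 3 lower in Th9, and 0 higher and 2 lower in Th1. Their medians were -0.37, -0.65 and -0.11. Ahrr, the repressor that the receptor induces, averaged 4.84 under PBAB and 6.59 under HA in Th17 cultures (difference -1.75 ± 0.22, limma adjusted p = 0.000732) and 4.29 and 6.50 in Th9 cultures (difference -2.21 ± 0.22, limma adjusted p = 0.000201). Cyp1b1, a cytochrome P450 that the receptor induces, averaged 5.29 under PBAB and 7.80 under HA in Th17 cultures, with a difference of -2.51 ± 0.38 (limma adjusted p = 0.00179). Tiparp, another target, ran the other way in Th17 cultures, higher by 1.77 ± 0.32 with means of 10.44 under PBAB and 8.67 under HA (limma adjusted p = 0.00429).

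These 4 calls held in every alternative tried, but the PBAB means of Ahrr were low and their sizes are uncertain. The mean of Ahrr was above the low-value threshold only in Th17 HA and Th9 HA cultures, so its entry into the test rests on groups where it was high. Its Th1 call compared low means of 3.94 under PBAB and 4.68 under HA (limma adjusted p = 0.0481). That call was lost in 10 of 19 alternatives. Cyp1a1, the best known target, was low in all 6 activated groups, at 4.33 to 4.98. The mean of the macrophage and monocyte genes described above was lower in Th17 PBAB and Th9 PBAB than in the HA cultures, with Cd68 the other way in Th9, and their part in these differences was not tested. The pathway count fell to 1 without any 1 of the 4 Th9 arrays in Th9 cultures. In Th1 cultures it fell to 1 without any 1 of 10 arrays, all but the 2 of Th17 HA, and was 4 with the replicate block.

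Of 7 other MAF-family and related bZIP genes tested, 1 was higher and 1 lower under PBAB in each culture. Hlf was lower in Th9 cultures by a difference of -1.36 ± 0.24 (limma adjusted p = 0.00430), which held in every alternative tried. Maff, a small MAF protein without an activation domain, was higher in Th17 (1.30) and Th9 cultures (1.39), while Mafg and Mafk were called in none. Maff lost both calls when 1 array was left out, in Th17 cultures HA replicate 2 or either PBAB array, and in Th9 cultures HA replicate 2 or either PBAB array (limma adjusted p = 0.0526 to 0.206). The count of the list fell to 0 or 1 without Th17 HA replicate 2 or either Th17 PBAB array, 1 without Th9 HA replicate 2 or either Th9 PBAB array, and 0 or 1 without Th1 HA replicate 2 or either Th1 PBAB array. With the block it was 4 in Th17 cultures.

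Of 7 tested genes known from type 1 regulatory T cells or as co-inhibitory receptors, 2 were higher under PBAB in Th17 cultures, 3 in Th9 and 2 in Th1, where 1 was lower. Havcr2, which encodes TIM-3, was lower under PBAB in Th1 cultures, with means of 5.04 under PBAB and 8.20 under HA (difference -3.16 ± 0.32, limma adjusted p = 0.000174), and it was low in the other 4 activated groups. The low PBAB mean leaves the size of that difference uncertain. Ctla4 was higher under PBAB in Th17 cultures by 1.34 ± 0.18 (limma adjusted p = 0.000914), with means of 13.03 under PBAB and 11.69 under HA. Both calls held in every alternative tried. Lag3, a marker of IL-10 producing T cells, averaged 10.47 in Th9 PBAB and 8.05 in Th9 HA cultures (difference 2.42 ± 0.66, limma adjusted p = 0.0351), a call lost without Th9 HA replicate 2, either Th9 PBAB array or either Th17 PBAB array (limma adjusted p = 0.0524 to 0.234). The count was 1 without Th17 HA replicate 2 or either Th17 PBAB array, 0 without Th9 HA replicate 2, 1 without Th9 PBAB replicate 1, and 1 without either Th1 PBAB array. It was 5 in Th1 cultures with the block.

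**Figure D5:**
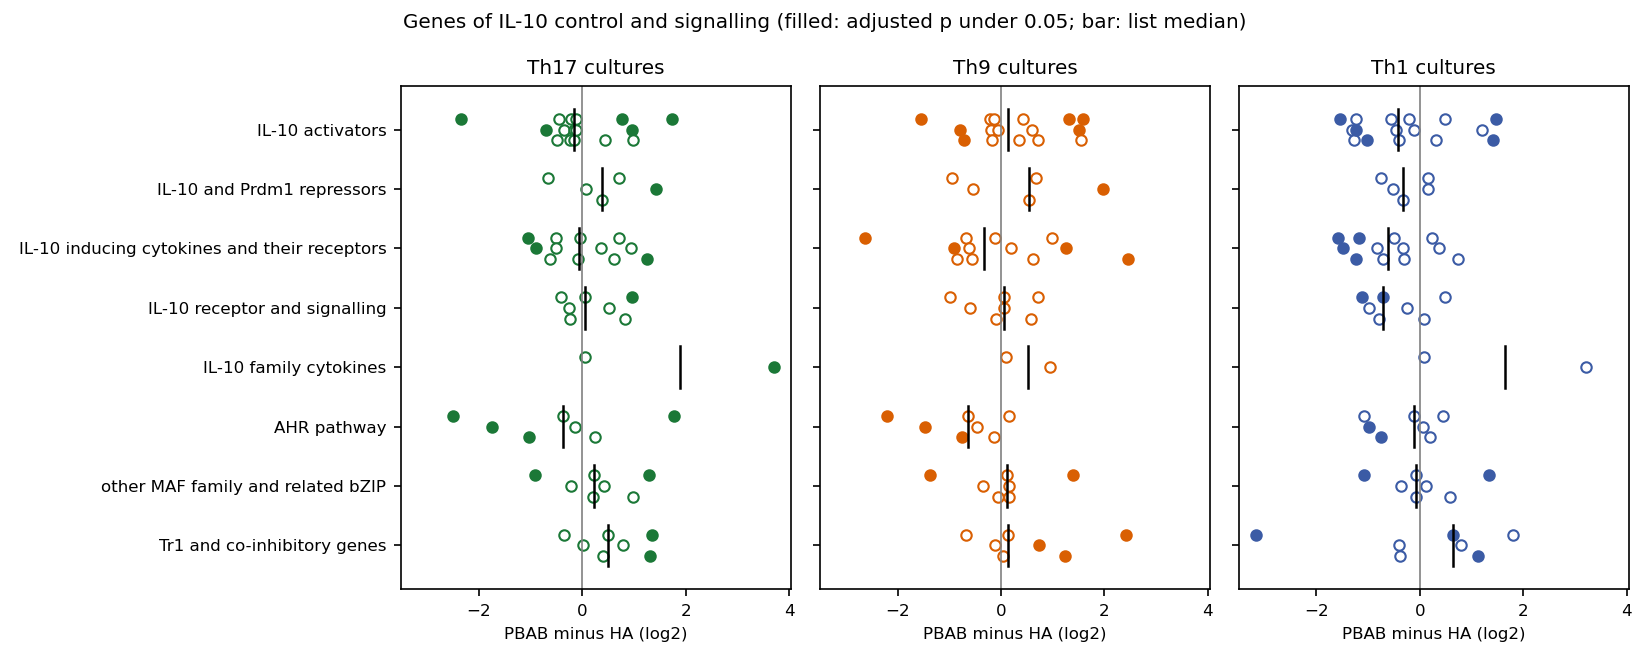
PBAB minus HA (log2) of single genes in 8 lists of IL-10 control and signalling, with a panel each for Th17, Th9 and Th1 cultures. Filled points had a limma adjusted p under 0.05 and black bars are list medians; Rbpj is among the filled points above 0 in every panel, and the medians of the activators were -0.16 in Th17, 0.14 in Th9 and -0.43 in Th1 cultures.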

How the data were processed

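The deposited table held log2 values of 45101 probe sets on 15 Affymetrix arrays, which the authors made with RMA per the submitters' processing notes. The log base was read from the range of the values, 2.10 to 15.05. No version of RMA is given in the sources used here. RMA removes background and is meant to make the distributions of arrays equal at the level of probes, before these are summarized to probe sets. That can move levels where samples differ as much as APC alone does from activated cultures. The deposited distributions of probe set values were not exactly equal, because centring or a second quantile normalization moved some differences from APC alone. RMA does not require them to be. Values were used as deposited.

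Gene names came from GEO's platform annotation of 2016, in which 34958 had 1 symbol, 932 several and 9211 none here. Of those with 1 symbol, 34754 matched RefSeq by gene identifier, and 0 symbols changed. For each gene the probe set brightest on average over 15 arrays was taken and the gene was tested if it lay above the 40th percentile of the table (5.07) in at least 2 arrays. limma 3.58.1 in R 4.3.3 fitted 1 mean per group, with 6 residual and 4.38 prior degrees of freedom. On simulated arrays it recovered 51%, 65% and 58% of 100 genes changed by 1, and 99%, 97% and 98% of 100 changed by 2, in Th17, Th9 and Th1 cultures among 15498 genes. In the same order, 7, 10 and 5 genes not changed were called. The simulated noise was independent between arrays, whereas real arrays of one replicate number deviated together, so these rates may not hold for the data.

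The members, lists and tests were chosen with earlier results of these data known. The named list genes were up to 3 members with the smallest p in each activation contrast. Those called in a difference of effects, and a few others given for their role, were chosen after their values were seen. Genes that Il10 resembles were the 5 with the highest and 3 with the lowest r, and 3 for each regulator. Of the list genes, Il19, Il22, Ptges3, Hsp90ab1, Tigit and some others are not analysed here, and Cd226 did not pass the filter. Alternatives were the replicate block, no filter, centring, a second quantile normalization, the 12 activated arrays alone, the mean of probe sets, array weights and leaving out each array. Arrays with one replicate number deviated together, with correlations of 0.30 to 0.71 (median 0.48) over 15 pairs of groups, and the pairing comes from the numbers in the labels and this check.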

Additional observations from a re-analysis of the deposited data

Results flagged for a closer look

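The activation effect, PBAB minus HA, differed between cultures for 2 of the regulators by a limma test of the difference itself, which called 3.53% of all genes in Th17 against Th1 and 1.37% in Th9 against Th1. For Maf it was larger in Th17 than in Th1 cultures by 4.43 and in Th9 than in Th1 by 3.13, and for Nfil3 it was larger in Th17 than in Th1 by 3.15. The Maf call in Th9 against Th1 was lost with the mean of all probe sets (limma adjusted p = 0.284), and the Nfil3 call without Th17 PBAB replicate 2, Th17 HA replicate 2 or Th1 PBAB replicate 2 (limma adjusted p = 0.0593, 0.0546 and 0.0585). For Il10 the effect was above 0 in both pairs of Th17 arrays, by 0.04 in one of them, and below 0 in every pair of the other cultures, so that it differed by 6.73 between Th17 and Th1 and by 3.48 between Th17 and Th9. Neither difference was tested. The size of the first is uncertain because Il10 was low in Th1 PBAB cultures, at 4.95.

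Among other genes of IL-10 control the same test picked out Havcr2, with 3.17 between Th17 and Th1 cultures and 2.48 between Th9 and Th1, and Il12rb2, with 3.28 between Th9 and Th1. Smad3, which encodes a transcription factor of TGF-beta signalling, gave 1.80 between Th17 and Th1 cultures. Il4ra, which encodes a chain of the IL-4 receptor, gave 1.97 between Th17 and Th1 and 2.09 between Th17 and Th9. Gata3 gave -2.95, Icos 2.00 and Tiparp 2.23 between Th17 and Th9 cultures. Eomes gave 1.40 between Th17 and Th9 and -1.34 between Th9 and Th1, and Hlf gave -1.95 between Th9 and Th1. Of these 12 differences, those of Havcr2 between Th17 and Th1 cultures and of Il12rb2 were called in every alternative tried, and the other 10 lost their call in 3 to 10 of 19 alternatives. Havcr2 was low in Th17 (3.92 under PBAB, 3.91 under HA), Th9 (4.02 and 4.71) and Th1 PBAB cultures (5.04). Il12rb2 was low in Th9 HA cultures (4.58). The sizes of the Havcr2 and Il12rb2 differences are therefore uncertain. Between the Th17 and Th9 effects, 1.71% of all genes were called.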

How the results depend on the processing

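The replicate numbers were taken to pair the arrays, and the replicate block raised counts more than any other alternative. With it the number of the 4 regulators called was 2 in Th9 PBAB against HA (1 without it), 2 in the difference of the Th9 and Th1 effects (1 without it) and 2 in that of the Th17 and Th9 effects (0 without it, limma). The number was 3 in the difference of the Th17 and Th1 effects (2 without the block) and 3 in Th17 against Th9 under PBAB (2 without the block). Over all genes the block raised the called count to 4709, 4056 and 4380 between activations in Th17, Th9 and Th1 cultures, against 2648, 2126 and 2266. For the differences of effects it gave 1476, 1828 and 739 in Th17 minus Th9, Th17 minus Th1 and Th9 minus Th1, against 265, 547 and 212. Between lineages in that order it gave 2351, 2642 and 861 under PBAB, against 987, 1083 and 334, and 1831, 2373 and 1863 under HA, against 739, 1069 and 827. The block changed no call of the 4 regulators other than those named beside their results. After a repeated quantile normalization 2 regulators were called in Th9 PBAB against HA and 1 in the difference of the Th17 and Th9 effects. With the mean of all probe sets 0 were called in the difference of the Th9 and Th1 effects and 0 in Th9 against Th1 under HA, where without a filter, after centring on the median or with array weights 1 was, against 2.

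With each of 12 arrays left out in turn, the regulators called numbered 1 to 3 in Th17, 1 to 2 in Th9 and 2 to 2 in Th1 cultures between activations. They numbered 0 to 1, 1 to 2 and 1 to 1 for the effects of Th17 minus Th9, Th17 minus Th1 and Th9 minus Th1, 1 to 2, 3 to 3 and 2 to 2 between lineages in that order under PBAB, and 2 to 3, 3 to 4 and 0 to 2 under HA. The called count over all genes could fall too when 1 array was left out, so these changes are not particular to the regulators. The activation difference of Il10 ran from 0.12 to 1.39 in Th17, -3.61 to -1.84 in Th9 and -6.68 to -5.26 in Th1 cultures. Its difference of -0.47 between Th9 and Th1 under HA ran from -1.36 to 0.41 and became 0.23 without Th1 HA replicate 1 and 0.41 without Th9 HA replicate 2. The gap between 2 arrays of an HA group was larger than that difference. Il10 over APC alone, 5.15 in HA and 2.50 in PBAB, became 5.59 in HA after centring and 2.93 in PBAB after a repeated quantile normalization. The cause of these changes was not tested. The main limits are 2 arrays a group, low signal for Il10 in Th1 PBAB and for Prdm1 in Th17 cultures, and no detection calls.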
